A study of Mus musculus with 9 samples.

Results

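The genes described here encode the extracellular part of the Wnt pathway: 19 Wnt ligands, 10 Frizzled receptors, the co-receptors Lrp5 and Lrp6, 6 secreted proteins that bind Wnts (Sfrp1, Sfrp2, Sfrp4, Sfrp5, Frzb and Wif1), and 6 Dickkopfs and Kremens (Dkk1 to Dkk4, Kremen1 and Kremen2). They were chosen by a rule on gene symbols without use of levels, but with earlier results of these data known. The 43 genes were measured by 45 of the 23521 transcript clusters (sets of probes read as one transcript) that carry a single gene symbol, out of 22180 genes so measured. Lrp6 and Sfrp2 each had 2 clusters and were read from the one with the higher mean, with the other given beside it.

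RNA levels were measured on 9 Affymetrix Mouse Gene 2.0 ST arrays of primary osteoblasts, isolated by enzyme digestion of calvaria from C57BL/6J pups of 7 to 10 days, with 3 arrays in each of 3 groups. All groups were grown to passage 2, differentiated from day 3 with ascorbic acid and beta-glycerophosphate and moved on day 10 to serum-free medium for 24 h. Treatment then lasted 4 h, with vehicle, 100 nM human hPTH(1-34), or 1 µM bovine bPTH(7-34) amide, which has D-Trp at position 12 and Tyr at position 34. hPTH(1-34) activates the receptor Pth1r and raises cAMP, and bPTH(7-34) is known to block that response. The peptides differed in dose, so a contrast between them compares peptide and dose together. The labels say that cells were prepared separately for each replicate, but not whether each preparation was divided among the treatments, and no transgene or selected clone was involved. Each array measured a whole culture, in which fewer cells of a type and less RNA per cell cannot be told apart.

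Wnts are lipid-modified secreted proteins that bind a Frizzled together with Lrp5 or Lrp6, which stabilises beta-catenin, or act through Frizzleds and other receptors without beta-catenin. SFRPs, Frzb and Wif1 bind Wnts outside the cell. Dkk1 and its relatives Dkk2 and Dkk4 bind Lrp5 and Lrp6, Kremens are receptors for Dickkopfs, and Dkk3 is a divergent relative. In bone, signalling through Lrp5 and Lrp6 supports osteoblast formation and bone mass.

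Array medians ran from 1.67 to 1.76 on the log2 scale, and correlations between arrays from 0.972 to 0.985 across groups and from 0.977 to 0.982 within them. Genes used to check that hPTH(1-34) acted were higher in that group, with Dgat1 at 3.71 ± 0.26 (log2 difference from vehicle ± SE, n = 3 per group, limma adjusted p = 0.00287), Nr4a2 at 1.81 ± 0.21 (adjusted p = 0.0149) and Rgs2 at 1.36 ± 0.21 (adjusted p = 0.0377). All 3 calls were lost without vehicle array 2 or 3 (limma adjusted p from 0.0502 to 0.193), and those of Nr4a2 and Rgs2 also without hPTH(1-34) array 2 or 3 (0.0933 to 0.18). That of Rgs2 was lost without bPTH(7-34) array 1 or 3 as well (0.0649 to 0.0674). With the 6 arrays alone all 3 calls were lost (0.0607 to 0.112), and with all clusters of the table those of Nr4a2 (0.0566) and Rgs2 (0.113). Of the osteoblast markers, 7 of 10 measured lay above background in every group, among them Col1a1, Alpl and Pth1r, while the late markers Bglap and Dmp1 lay below it in all 3 groups and Sp7 did so in 2 of 3. No marker of osteoblasts, osteocytes, macrophages, endothelium, fat, cartilage, muscle or blood passed the test in any comparison. For blood only Cd3e was measured, 1 of 6, and it lay below background in every group. Alpl gave 0.97 ± 0.17 for hPTH(1-34) against vehicle (limma adjusted p = 0.0601) and 0.99 ± 0.17 against bPTH(7-34) (adjusted p = 0.0539). For hPTH(1-34) against vehicle 5 of 10 osteoblast markers had a positive difference. So did 1 of 4 osteocyte markers, Fgf23 at 0.88 ± 0.31 (limma adjusted p = 0.399). The mean of 8 macrophage and osteoclast markers ran from 4.19 to 4.87 with vehicle, from 3.74 to 5.05 with hPTH(1-34) and from 3.90 to 4.71 with bPTH(7-34). The mean of 6 adipocyte markers ran from 3.93 to 4.35, from 4.10 to 4.87 and from 3.95 to 4.49. All 6 had a positive difference from vehicle after hPTH(1-34), with a median of 0.46. These differences ran from 0.01 for Pparg to 0.85 for Fabp4, and Lep (0.12) lay below background in every group. The part of these cell types in the results was not tested.

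A gene was taken to be above background where its group mean exceeded the 95th percentile of olfactory receptor genes, which was 1.69 with vehicle, 1.59 with hPTH(1-34) and 1.75 with bPTH(7-34). By that limit 30 of 43 genes were above background in all 3 groups, 4 in 1 or 2 groups (Wnt4, Wnt9b, Wnt16 and Sfrp5) and 9 in none. With the stricter 99th percentile 23 remained in all 3 groups. Nearly all receptors and antagonists passed the first limit, at 9 of 10 Frizzleds, both co-receptors, 5 of 6 Wnt binders and 6 of 6 Dickkopfs and Kremens, but 8 of 19 ligands passed it. At the stricter limit these counts were 8 of 10, 2 of 2, 5 of 6, 3 of 6 and 5 of 19. The genes above the limit in no group were Wnt1, Wnt2, Wnt3, Wnt3a, Wnt7a, Wnt7b, Wnt8a, Wnt8b and Fzd10, so no level is claimed for them. For Wnt7b the deposited value was 1.46 on 7 of 9 arrays.

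No member passed the test in any comparison. For hPTH(1-34) against vehicle, limma called 0 of 43 members at an adjusted p under 0.05, where it called 0.451% of all clusters tested (106, or 0 to 259 when a single array was left out, with 0 without vehicle array 2 or 3). At an unadjusted p under 0.05 there were 5 of 43 members (11.6%), against 9.31% of all clusters. These were Fzd5, Fzd2 and Fzd8, with lower values (3 members, against 3.78% of all clusters in that direction), and Fzd3 and Wnt11, with higher values (2 members, against 5.53%). In 6 members (14%) every array of one group lay beyond every array of the other, with no overlap, against 10.7% of all clusters, and all 6 were Frizzleds. The 3 with lower values were Fzd2, Fzd5 and Fzd8, where 4.58% of all clusters did so, and the 3 with higher values were Fzd3, Fzd4 and Fzd6, where 6.08% did. The count is 6 of 10 Frizzleds and 0 of 19 ligands, by counts that were not tested against each other. Detection was unlike, with 9 of 10 Frizzleds but 8 of 19 ligands above background in all 3 groups. For Fzd4 and Fzd6 the 95% interval held 0. The median log2 difference of the members was 0.057, against 0 for all clusters. The 95% interval lay within a 2-fold change either way for 40 of 43 members, the exceptions being Fzd5, Wnt6 and Dkk2.

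**Figure D1:**
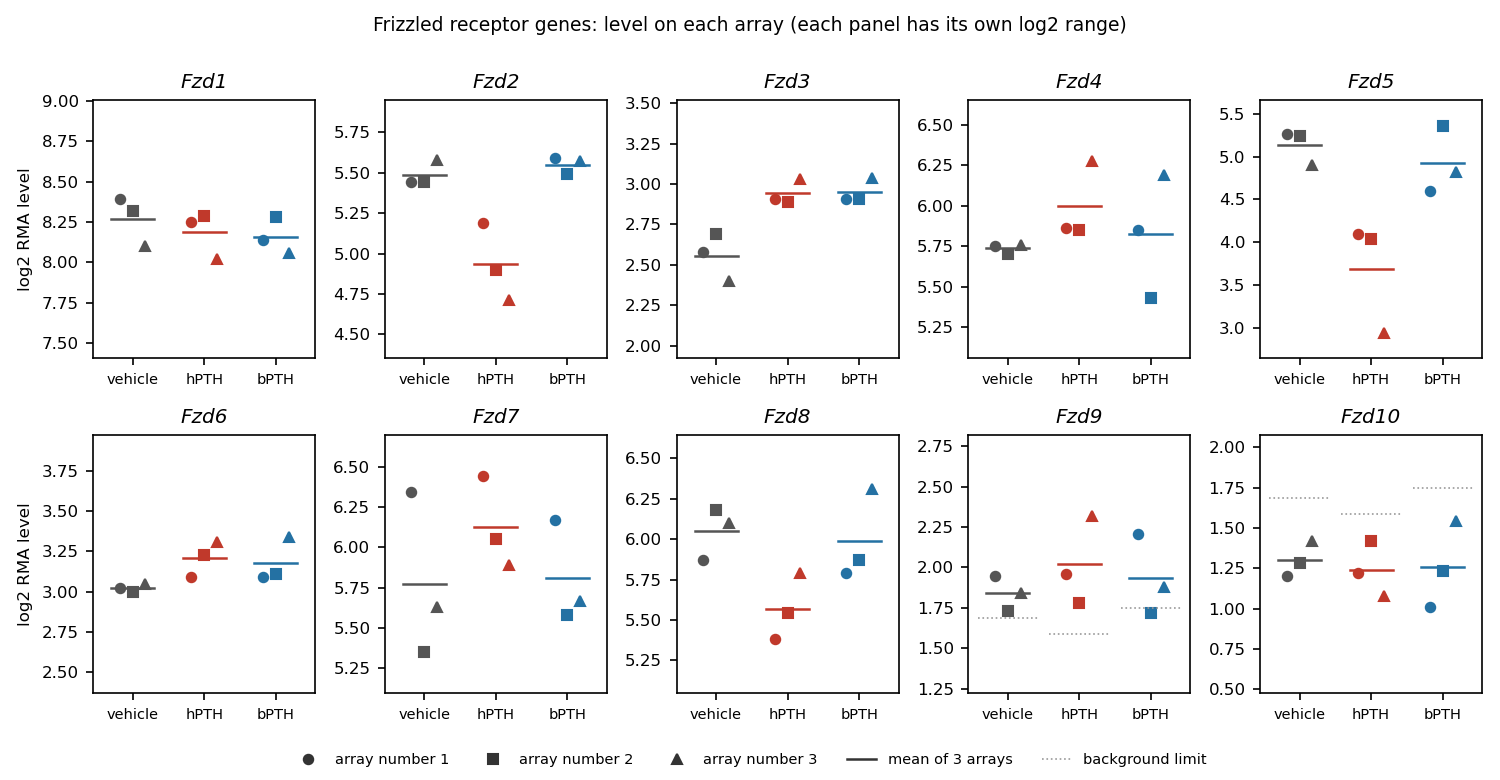
Log2 level of the Frizzled receptors on each array, by group, with the mean of the 3 arrays as a horizontal line, a marker shape for each array number and a dotted line at the background limit where it falls in the range; each panel has its own log2 range. With hPTH(1-34), the 3 Fzd5 values (2.94 to 4.09) lie under all vehicle values (4.90 to 5.27), and those of Fzd2 and Fzd8 also lie under their vehicle values.

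Fzd5, a receptor for canonical Wnts (transcript cluster 17223793), had log2 levels of 5.27, 5.24 and 4.90 on the vehicle arrays 1, 2 and 3. It read 4.09, 4.04 and 2.94 with hPTH(1-34). It read 4.60, 5.36 and 4.82 with bPTH(7-34). All 3 hPTH(1-34) arrays lay under every vehicle and every bPTH(7-34) array, and the bPTH(7-34) and vehicle arrays overlapped. Mean levels were 5.14 ± 0.21 (SD, n = 3) with vehicle, 3.69 ± 0.65 with hPTH(1-34) and 4.93 ± 0.39 with bPTH(7-34). The difference between hPTH(1-34) and vehicle was -1.45 ± 0.31 SE, a 2.73-fold lower level, with a 95% interval from -2.14 to -0.75, and limma's adjusted p of 0.108 did not pass. Arrays of the same number differed by -1.18, -1.20 and -1.96. The value rested in part on hPTH(1-34) array 3, without which the difference was -1.07, and over all alternatives limma's adjusted p ran from 0.0550 to 0.345. The macrophage marker mean was also lowest on that array (3.74). It was 3.90 on bPTH(7-34) array 3 and highest, at 5.05, on hPTH(1-34) array 1, where Fzd5 read 4.82 and 4.09. The part of these cells in the result was not tested. The promoter of Fzd5 is printed here because this gene had the largest difference of the members. It is from RefSeq on GRCm38.p6, chr1:64737751-64738000, minus strand, and holds the 250 bases before the gene's start, all in lower case because neither the cAMP response element core TGACG nor the TCF/LEF motif CTTTGAT was found in it on either strand.

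Fzd5: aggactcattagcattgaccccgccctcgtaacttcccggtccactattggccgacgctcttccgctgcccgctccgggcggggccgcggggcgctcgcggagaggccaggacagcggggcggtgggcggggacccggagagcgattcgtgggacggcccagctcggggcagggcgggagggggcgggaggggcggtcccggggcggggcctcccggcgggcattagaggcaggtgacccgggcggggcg

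Fzd2, a receptor close to Fzd1 and Fzd7 (transcript cluster 17256975), had log2 levels of 5.44, 5.44 and 5.58 with vehicle, 5.19, 4.90 and 4.71 with hPTH(1-34), and 5.59, 5.49 and 5.57 with bPTH(7-34). Every hPTH(1-34) array again lay under every array of the other 2 groups. Its mean was 5.49 ± 0.08 with vehicle, 4.93 ± 0.24 with hPTH(1-34) and 5.55 ± 0.05 with bPTH(7-34). The difference from vehicle was -0.55 ± 0.12 (95% interval -0.83 to -0.28, limma adjusted p = 0.128), a 1.47-fold lower level. Same-number arrays differed by -0.25, -0.54 and -0.87, so the size differed between numbers while the sign did not. Without hPTH(1-34) array 1 the difference was -0.68 and passed limma (adjusted p = 0.0242). It also passed when clusters with a mean log2 under 5 were left out (adjusted p = 0.0401). Leaving out a single array gave -0.68 to -0.44, the latter without hPTH(1-34) array 3, and over all alternatives adjusted p reached 0.381.

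Fzd8, the closest relative of Fzd5, had log2 levels of 5.87, 6.18 and 6.10 with vehicle, 5.38, 5.54 and 5.79 with hPTH(1-34) and 5.79, 5.87 and 6.31 with bPTH(7-34). The hPTH(1-34) arrays lay under all vehicle arrays and met the bPTH(7-34) range at 5.79. The difference from vehicle was -0.48 ± 0.16 (95% interval -0.85 to -0.11, limma adjusted p = 0.380).

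Fzd3 and its relative Fzd6 act mainly in planar cell polarity, a branch without beta-catenin, and both had higher values with either peptide than with vehicle. Fzd3 read 2.58, 2.69 and 2.40 with vehicle, 2.91, 2.89 and 3.03 with hPTH(1-34) and 2.91, 2.91 and 3.04 with bPTH(7-34). Its vehicle arrays lay under all arrays of both peptides, at a difference of 0.39 ± 0.10 (95% interval 0.16 to 0.61) for hPTH(1-34) and 0.40 ± 0.10 (0.17 to 0.62) for bPTH(7-34), with limma adjusted p = 0.208 and 0.999. Both differences use the same 3 vehicle arrays. Fzd6 read 3.02, 3.00 and 3.05 with vehicle, 3.09, 3.23 and 3.31 with hPTH(1-34) and 3.09, 3.11 and 3.34 with bPTH(7-34). Its differences were 0.19 ± 0.10 and 0.16 ± 0.10, and neither passed.

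Fzd4, the Norrin receptor, read 5.75, 5.70 and 5.76 with vehicle, 5.86, 5.85 and 6.28 with hPTH(1-34) and 5.85, 5.43 and 6.19 with bPTH(7-34), a difference of 0.26 ± 0.19 for hPTH(1-34) (limma adjusted p = 0.726). Without hPTH(1-34) array 3 the difference was 0.12. Every hPTH(1-34) array lay above the vehicle range, and the bPTH(7-34) arrays lay on both sides of it. The 95% intervals of Fzd4 (-0.16 to 0.68) and Fzd6 (-0.04 to 0.41) for hPTH(1-34) against vehicle held 0, as did those of Fzd7, Fzd9 and Fzd1. Fzd7 gave 0.35 (95% interval -0.24 to 0.95), Fzd9 0.18 (-0.19 to 0.55) and Fzd1 -0.08 (-0.35 to 0.18).

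**Figure D2:**
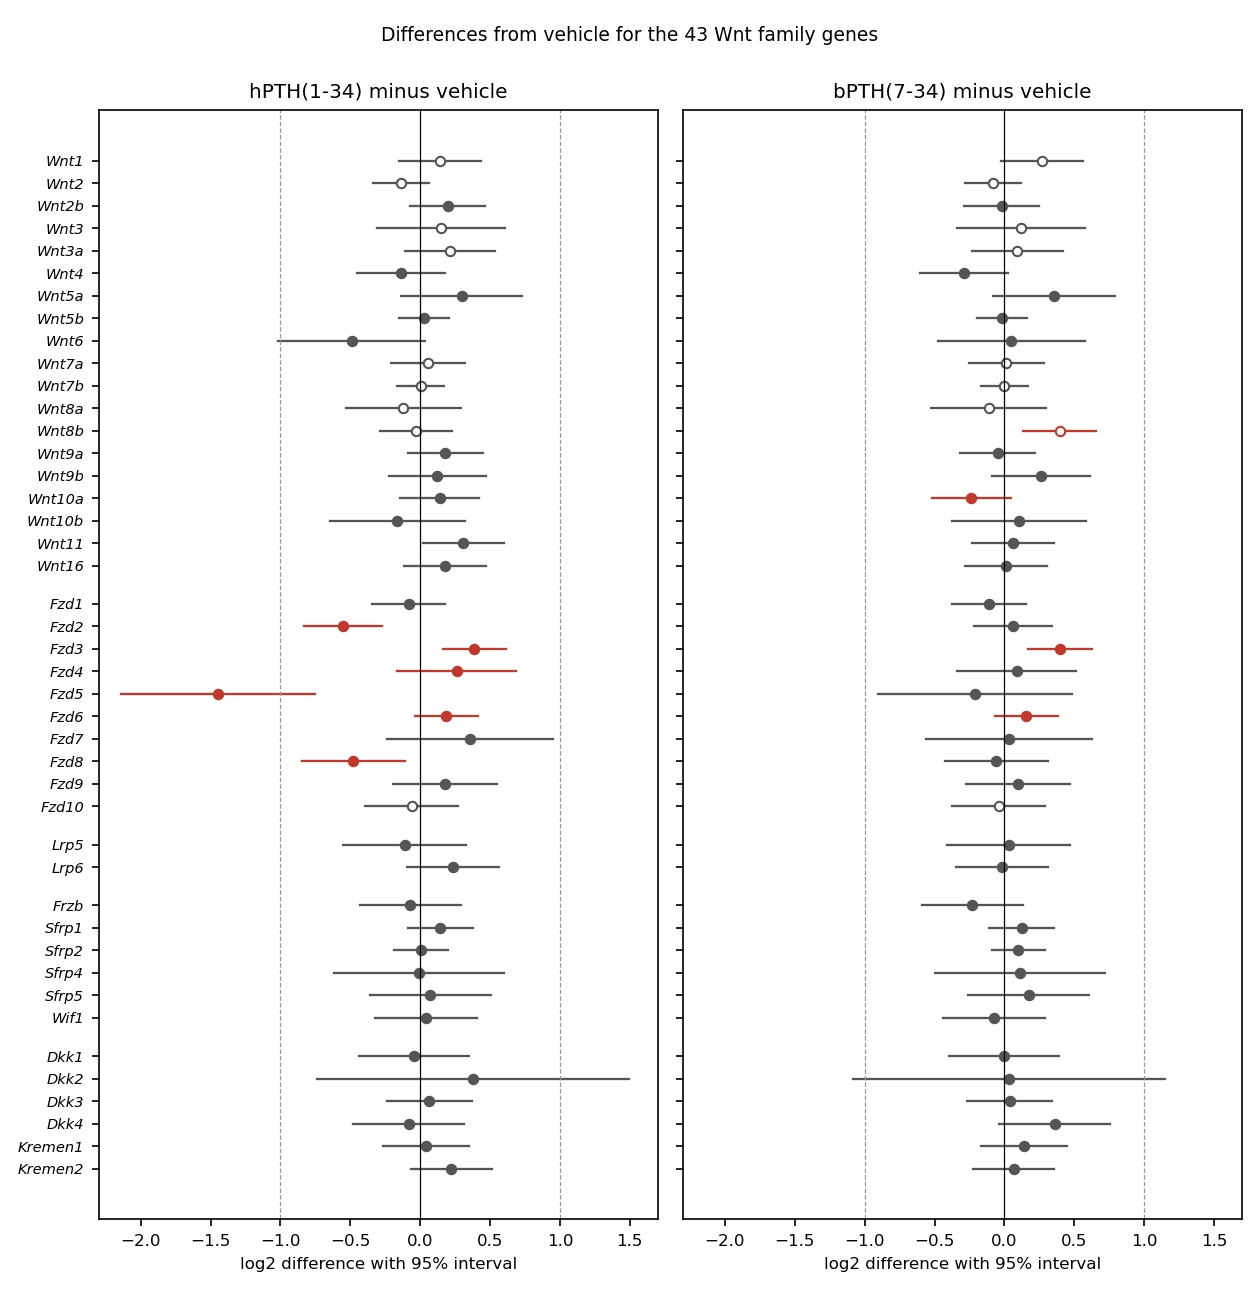
Log2 difference of each member between the groups, with its 95% interval, for hPTH(1-34) and for bPTH(7-34) against vehicle; dashed lines mark 2-fold, red marks members whose groups of 3 arrays do not overlap, and an open circle a member above background in no group. Fzd5 has the lowest difference for hPTH(1-34), at -1.45, and the other intervals that reach past 2-fold are those of Wnt6 and Dkk2.

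Among the ligands no group lay beyond another for hPTH(1-34) against vehicle. Wnt11, a ligand of the branch without beta-catenin, read 2.21, 2.40 and 2.28 with vehicle, 2.40, 2.53 and 2.89 with hPTH(1-34), and 2.27, 2.40 and 2.40 with bPTH(7-34). Array 3 of hPTH(1-34) was the highest, and the hPTH(1-34) arrays touched the vehicle range at 2.40. The difference was 0.31 ± 0.13 (95% interval 0.02 to 0.60, limma adjusted p = 0.496). Array 1 was lowest in every group. The mean of 5 chondrocyte markers was also lowest on array 1 of every group, from 3.57 to 3.76 against 4.17 to 4.39 on the others, and its part in the result was not tested.

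The RefSeq promoters of the members were searched on both strands, because cAMP acts through a response element in DNA and beta-catenin through TCF/LEF sites. Windows of 300 bases, 250 before and 50 after the start, were in the table for 28 of 43 members (31 windows). The full cAMP response element TGACGTCA was in 0 of the 31, against 1.79% of all 32851 windows. Its core TGACG, which the full element contains, was in 4 of the 31 windows (2 of Wnt11 and 1 each of Wnt10b and Sfrp5), against 20.8% of all windows. The TCF/LEF motif CTTTGAT was in 2 of the 31 (Wnt5b and Wnt11), against 3.73%. Wnt11 is printed because both motifs lay in its first window, the core at 119 and 63 bases and CTTTGAT at 51 bases before the start. It is from GRCm38.p6, chr7:98834862-98835111, plus strand, with each match on either strand in capitals. A match describes letters and is not a shown binding site.

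Wnt11: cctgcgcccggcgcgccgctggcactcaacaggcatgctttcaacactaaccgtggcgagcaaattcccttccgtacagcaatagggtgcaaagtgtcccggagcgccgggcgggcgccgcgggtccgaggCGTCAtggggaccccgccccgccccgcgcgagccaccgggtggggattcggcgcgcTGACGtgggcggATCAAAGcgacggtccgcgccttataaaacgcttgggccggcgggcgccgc

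Wnt6, a canonical ligand, read 3.26, 3.90 and 3.30 with vehicle, 3.30, 2.89 and 2.80 with hPTH(1-34), and 3.75, 3.75 and 3.11 with bPTH(7-34). The hPTH(1-34) values overlapped those of vehicle, and the difference was -0.49 ± 0.23 (95% interval -1.01 to 0.03, limma adjusted p = 0.570), and -0.28 without vehicle array 2. Wnt10a, a ligand known for roles in tooth and hair, read 2.35, 2.71 and 2.40 with vehicle, 2.44, 2.75 and 2.69 with hPTH(1-34), and 2.15, 2.31 and 2.29 with bPTH(7-34). The bPTH(7-34) arrays lay under all others, with a difference from vehicle of -0.24 (limma adjusted p = 0.999), and hPTH(1-34) exceeded bPTH(7-34) by 0.38 (adjusted p = 0.359). Its bPTH(7-34) mean of 2.25 lay under the stricter 99th percentile background limit of 2.35 for that group. Wnt2b, which read 1.91, 1.91 and 1.76 with vehicle, 1.91, 2.29 and 1.97 with hPTH(1-34) and 1.75, 1.95 and 1.82 with bPTH(7-34), gave 0.20 for hPTH(1-34) (95% interval -0.07 to 0.46), with overlapping groups.

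Wnt8b, Wnt1 and Wnt4 lay near or under the background limit, so the values given for them describe readings near background. Wnt8b read 0.94, 1.28 and 1.22 with vehicle, 1.05, 1.15 and 1.15 with hPTH(1-34), and 1.52, 1.42 and 1.69 with bPTH(7-34). Wnt1 read 1.54, 1.58 and 1.13 with vehicle, 1.45, 1.65 and 1.58 with hPTH(1-34), and 1.75, 1.73 and 1.58 with bPTH(7-34). Wnt4 read 1.61, 1.72 and 2.14 with vehicle, 1.69, 1.61 and 1.76 with hPTH(1-34), and 1.45, 1.67 and 1.49 with bPTH(7-34), and was above the limit in the first 2 groups. The ligands Wnt5a and Wnt5b, both of the branch without beta-catenin, were above background throughout. Wnt5a gave 0.30 (95% interval -0.14 to 0.73) for hPTH(1-34) and 0.36 (-0.08 to 0.79) for bPTH(7-34), and Wnt5b gave 0.03 (-0.15 to 0.21) for hPTH(1-34).

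**Figure D3:**
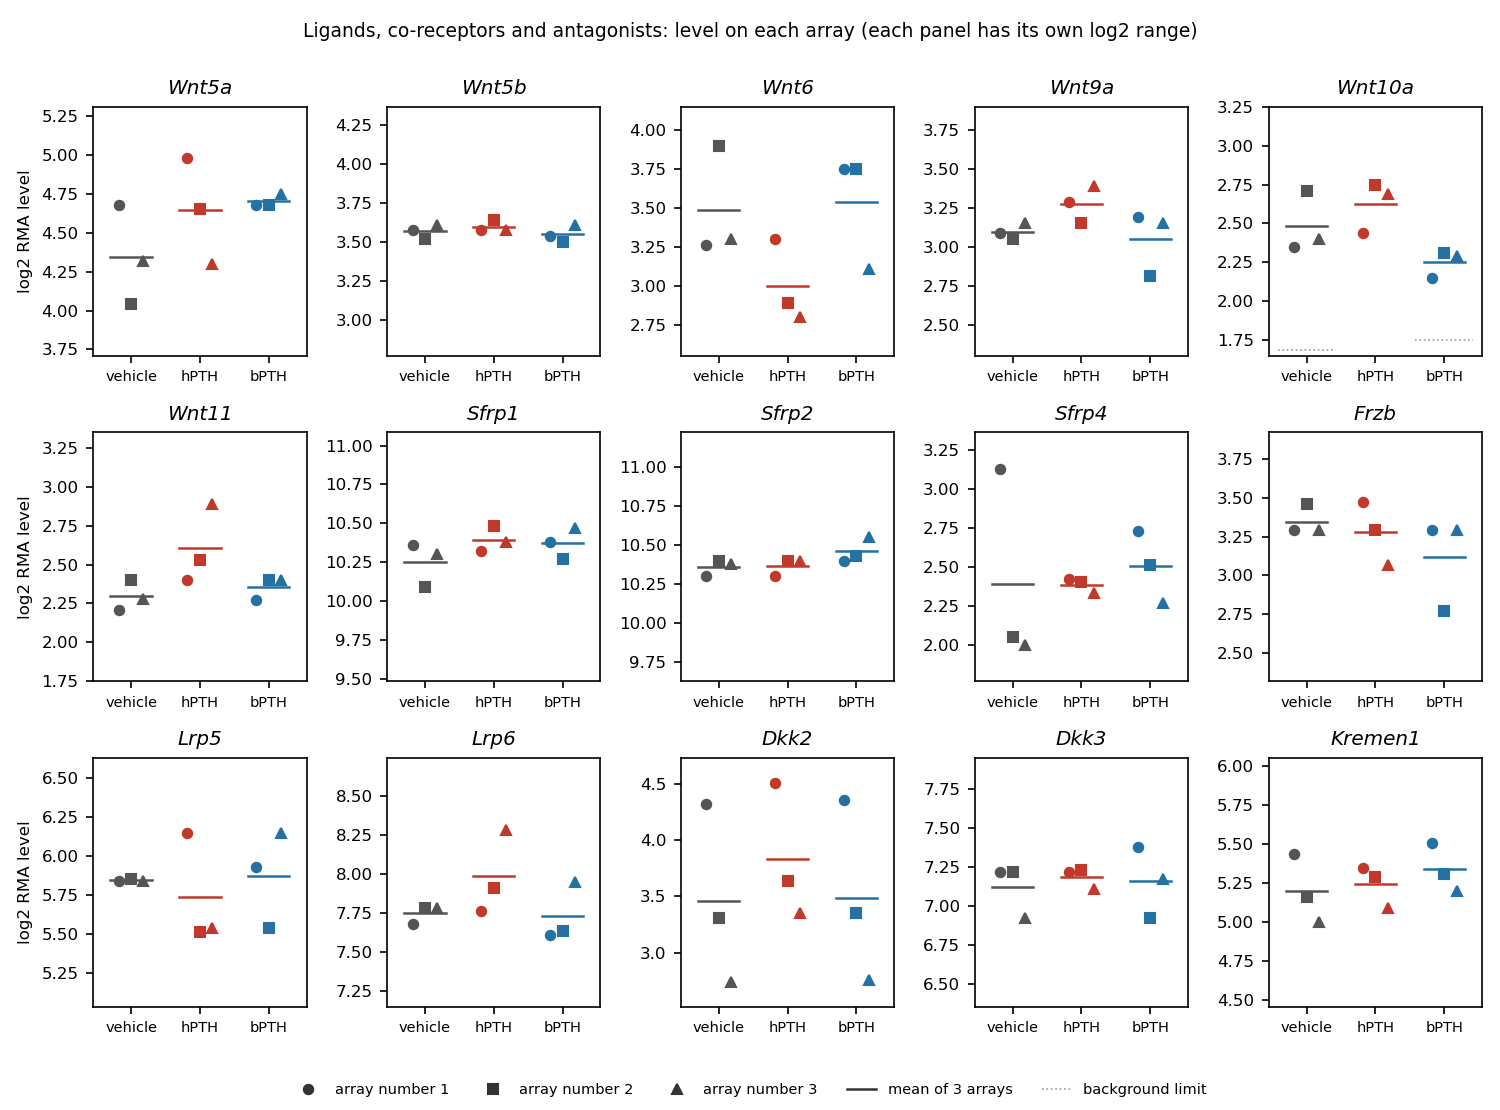
Log2 level of other members on each array, by group, with the group mean as a horizontal line, a marker shape for each array number and a dotted line at the background limit where it falls in the range; each panel has its own log2 range. The groups overlap for Wnt6 and meet at 2.40 for Wnt11, while the bPTH(7-34) values of Wnt10a (2.15 to 2.31) lie under all its other values.

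Neither co-receptor passed in any comparison, and their groups overlapped. Lrp6 read 7.68, 7.78 and 7.78 with vehicle, 7.76, 7.91 and 8.28 with hPTH(1-34), and 7.61, 7.63 and 7.95 with bPTH(7-34). Its difference for hPTH(1-34) was 0.24 ± 0.15 (95% interval -0.09 to 0.57, limma adjusted p = 0.676), and its dimmer cluster gave 0.28 (-0.20 to 0.76). Lrp5 read 5.84, 5.85 and 5.84 with vehicle, 6.15, 5.51 and 5.54 with hPTH(1-34), and 5.93, 5.54 and 6.15 with bPTH(7-34), a difference of -0.11 (-0.55 to 0.33). Its vehicle arrays spanned 5.84 to 5.85, while those of either peptide spread to both sides of them.

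The Wnt binders with the narrowest intervals were Sfrp1 and Sfrp2. Sfrp1 read 10.36, 10.09 and 10.30 with vehicle, 10.32, 10.48 and 10.38 with hPTH(1-34), and 10.38, 10.27 and 10.47 with bPTH(7-34), a difference of 0.14 for hPTH(1-34) (95% interval -0.09 to 0.38). Sfrp2 read 10.30, 10.40 and 10.38 with vehicle, 10.30, 10.40 and 10.40 with hPTH(1-34), and 10.40, 10.43 and 10.55 with bPTH(7-34), a difference of 0.0067 (-0.18 to 0.20), and its dimmer cluster gave 0.02. Frzb, which read 3.29, 3.46 and 3.29, then 3.47, 3.29 and 3.07, then 3.29, 2.77 and 3.29 in the same order of groups, gave -0.07 (-0.43 to 0.29). Wif1 gave 0.04 and Sfrp4 -0.01, and the Sfrp4 interval was wider (-0.62 to 0.60).

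Among the Dickkopfs and Kremens, Dkk4 read 1.49, 1.85 and 1.82 with vehicle, 1.31, 1.82 and 1.78 with hPTH(1-34), and 2.13, 2.29 and 1.82 with bPTH(7-34), near the background limit. Kremen2 read 2.01, 1.93 and 1.67, then 2.06, 2.01 and 2.21, then 2.09, 1.73 and 1.99 in that order, with a difference of 0.22 for hPTH(1-34) (95% interval -0.07 to 0.51). Kremen1 read 5.44, 5.16 and 5.00, then 5.35, 5.29 and 5.09, then 5.51, 5.31 and 5.2, with a difference of 0.04 (-0.27 to 0.35). The groups overlapped for each of them. Dkk1 gave -0.043 (-0.44 to 0.35) and Dkk3 0.07 (-0.24 to 0.37). The means of Dkk1, Dkk4 and Kremen2 lay under the stricter 99th percentile background limit in every group.

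Dkk2 varied more between array numbers than between treatments. It read 4.32, 3.31 and 2.74 with vehicle, 4.51, 3.64 and 3.35 with hPTH(1-34), and 4.36, 3.35 and 2.76 with bPTH(7-34), so array 1 was highest and array 3 lowest in each group. The difference for hPTH(1-34) was 0.38 (95% interval -0.74 to 1.49, limma adjusted p = 0.864), while same-number arrays differed by 0.19, 0.33 and 0.61, and by 0.04, 0.04 and 0.02 for bPTH(7-34). Leaving out a single array gave 0.018 (without vehicle array 3) to 0.81 (without vehicle array 1) for hPTH(1-34). Kremen1, Fzd7 and Sfrp4 were also highest on array 1 of each group, which gives 4 of 43 members (9.3%) against 6.4% of all clusters. Array 1 was lowest in each group for 6 members (14%), against 4.72% of all clusters, and these were Fzd8, Lrp6, Sfrp2, Wif1, Wnt10a and Wnt11.

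**Figure D4:**
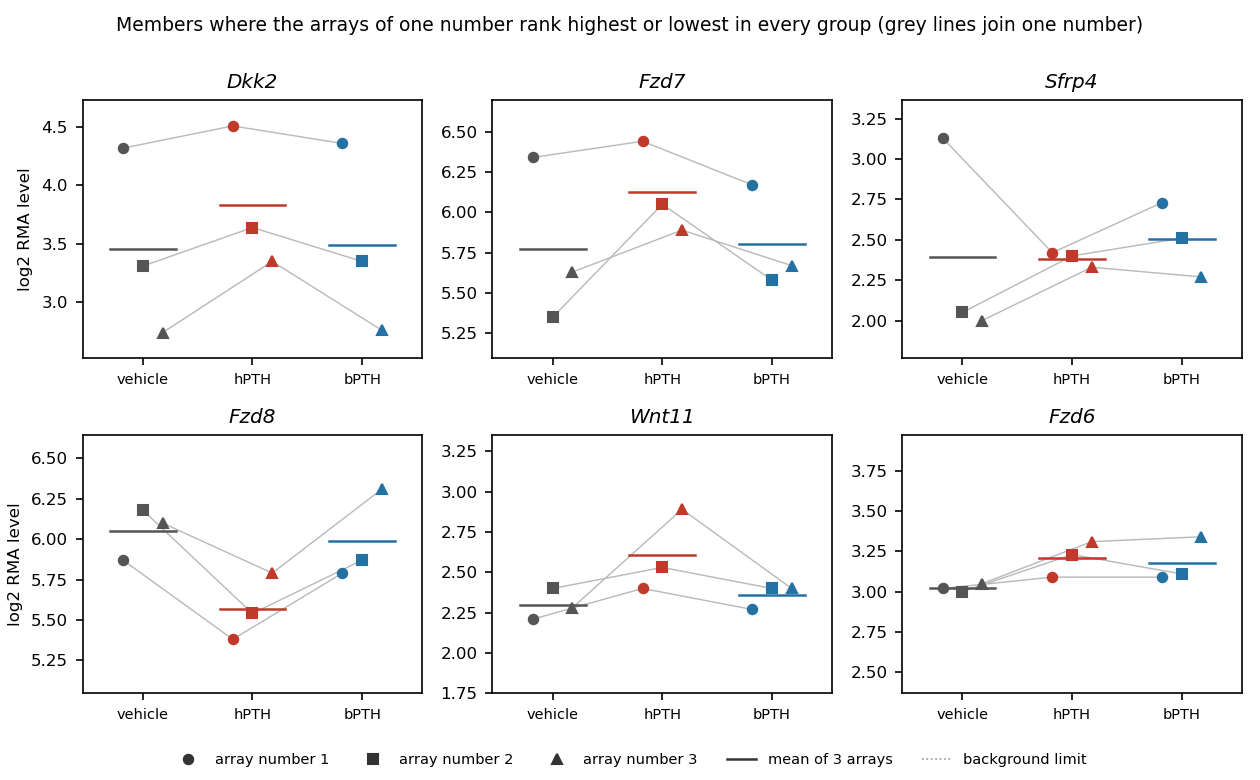
Log2 level of 6 members on each array, with a grey line joining arrays of one number across the groups; each panel has its own log2 range. For Dkk2 the line of number 1 (4.32 to 4.51) lies above the others. The line of number 3 (2.74 to 3.35) lies under that of number 2 (3.31 to 3.64) in each group, but their ranges overlap.

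For bPTH(7-34) against vehicle limma also called 0 of 43 members, and 0% of all clusters. At an unadjusted p under 0.05 there were 2 members (4.65%), Fzd3 and Wnt8b (the latter below background in every group), against 3.32% of all clusters, both with higher values, as for 1.86% of all clusters. In 4 members (9.3%) the groups did not overlap, against 5.29%. These were Fzd3, Fzd6 and Wnt8b with higher values (3 members, against 2.9%) and Wnt10a with lower values (1 member, against 2.39%). The smallest adjusted p was 0.999, the median difference was 0.037, and 42 of 43 intervals lay within a 2-fold change, Dkk2 being the exception. Fzd5 gave -0.21 (95% interval -0.90 to 0.48), and Fzd2 gave 0.06 (-0.22 to 0.34).

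For hPTH(1-34) against bPTH(7-34) 0 of 43 members passed in limma, against 0.463% of all clusters. There were 7 members (16.3%) at an unadjusted p under 0.05, against 9.52%, of which 6 had lower values (4.22% of all clusters) and 1 had a higher value (5.3%). Fzd2 gave -0.62 (95% interval -0.90 to -0.34, limma adjusted p = 0.0856), Fzd5 -1.24 (-1.93 to -0.54, adjusted p = 0.173), Fzd8 -0.42 (adjusted p = 0.446) and Wnt6 -0.54 (adjusted p = 0.508). The others were Wnt8b and Dkk4, with lower values, and Wnt10a, with a higher value. Fzd2 and Fzd5 were the Frizzleds whose arrays did not overlap here, and 4 members in all (9.3%) did not overlap, against 11.1% of all clusters. With Wnt8b, 3 of these had lower values (5.1% of all clusters), and Wnt10a had higher values (5.99%). Fzd2 passed limma here without hPTH(1-34) array 1 (-0.75, adjusted p = 0.0164). In the F-test for any difference among the 3 groups, limma called 0 of 43, against 0.383%, and 6 (14%) had an unadjusted p under 0.05, against 8.18%.

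Of 87 symbols listed for other genes of the pathway, 79 were measured. Wtx and Wisp1, listed but not measured, are older names of Amer1 and Ccn4, which were measured. In limma, hPTH(1-34) against vehicle gave 1 higher and 1 lower among the 79, where 0.31% of all clusters were higher and 0.14% lower. Rspo2, an R-spondin that stabilises Frizzleds at the cell surface, fell, from 7.37, 8.02 and 8.05 with vehicle to 6.27, 6.20 and 6.37 (-1.53 ± 0.23, adjusted p = 0.0356), and Daam2, a formin of the polarity branch, rose, from 2.27, 2.12 and 2.56 to 3.05, 3.74 and 3.68 (1.17 ± 0.19, adjusted p = 0.042). Both lost their call without vehicle array 2 or 3, hPTH(1-34) array 2 or 3, or bPTH(7-34) array 2, with limma adjusted p from 0.0718 to 0.201, and also with all clusters of the table or the 6 arrays alone. Daam2 also lost its call without vehicle array 1 or bPTH(7-34) array 1 or 3. Its vehicle mean of 2.32 lay close to the 99th percentile background limit of 2.19. Daam1, its relative, had a difference of the other sign, -0.66 ± 0.17 (limma adjusted p = 0.201). Of the R-spondin receptors, Lgr4 gave 0.51 ± 0.16 (limma adjusted p = 0.331), Lgr6 gave 0.09 ± 0.21 and Lgr5 gave -1.43 ± 0.25 (adjusted p = 0.0561). Lgr5 passed under 8 of 20 alternatives, among them a mean log2 of at least 5 (adjusted p = 0.0184), and adjusted p reached 0.238 in others. Against bPTH(7-34) its difference of -1.51 passed (adjusted p = 0.044), as did that of Rspo2 at -1.54 (adjusted p = 0.033). These last 2 calls were lost without vehicle array 2 or 3, hPTH(1-34) array 2 or 3, or bPTH(7-34) array 2 or 3, and also with all clusters of the table or the 6 arrays alone (limma adjusted p from 0.110 to 0.134 in the last 2). That of Lgr5 was lost without hPTH(1-34) array 1 or bPTH(7-34) array 1 as well. Rspo3 gave -0.997 ± 0.21 (adjusted p = 0.0990). An unadjusted p under 0.05 was seen for 17 of the 79 genes (21.5%), against 9.31% of all clusters in this comparison, and the median difference was -0.03. By role, symbols measured were 27 of 28 for secretion, receptors and modulators, 40 of 44 for cytoplasmic and nuclear genes and 21 of 25 for pathway targets. These lists share some genes, and the targets include the members Dkk1, Dkk2 and Wif1. Lgr5, called lower against bPTH(7-34) above, is also a target. For hPTH(1-34) against vehicle 0 targets passed. At an unadjusted p under 0.05, 1 of the 21 was higher (Rnf43, against 5.53% of all clusters). Lower were 2, Lgr5 and Nkd1 (-0.51 ± 0.18, limma adjusted p = 0.399), against 3.78%. Axin2, a direct target, gave 0.12 ± 0.21, and Ctnnb1, which encodes beta-catenin, gave -0.03 ± 0.09. For bPTH(7-34) 0 of 79 passed in limma and 3 (3.8%) had an unadjusted p under 0.05, against 3.32% of all clusters.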

How the data were processed

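The authors deposited RMA values on the log2 scale for each transcript cluster, to 2 decimals, made with Affymetrix Expression Console per the submitters' processing notes (versions not given in the sources used here). Scanner files were not used here. Precision is limited by the number of arrays. Genes were named from the platform annotation, and all 43 matched RefSeq by gene identifier.

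Groups were compared with limma 3.58.1 (lmFit, eBayes, two-sided; R 4.3.3), fitting the 9 arrays together on group alone, with 6 residual and 3.20 prior degrees of freedom, over all 23521 single-symbol clusters, with Benjamini-Hochberg adjustment and a threshold of 0.05. SE and 95% intervals come from that fit. The p-values set each group difference against the spread between arrays within groups, moderated over all clusters. The script was tested on simulated data. The members, lists and tests were chosen with earlier results of these data known. Full values were to be given for Fzd5, members past 0.05, the 12 members with the smallest F-test p, and up to 3 per role above background. Members outside that rule, such as Fzd1, Fzd4, Fzd6, Fzd7, Wnt5a, Wnt5b, Sfrp4, Wif1, Dkk1, Dkk2 and Dkk3, were named after their values were seen.

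Array numbers were taken from the sample titles. Deviations from group means of same-number arrays correlated from 0.0646 to 0.364, not all over 0.1, so the number was no block in the main fit. Alternatives were a block, all clusters, filters at a mean log2 of 3 and 5, quantile normalisation, a shift to one median, a trended robust prior, array weights, 1 cluster per gene, only the 6 arrays compared, and omission of each array in turn. Plots used matplotlib 3.10.9 in Python 3.11.15.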

Additional observations from a re-analysis of the deposited data

How the results depend on the processing

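With a fixed or random replicate block for the array number, 0 members passed in any comparison. With the fixed block, Fzd5 had adjusted p = 0.0550 and Fzd2 0.144 for hPTH(1-34) against vehicle, and the F-test called 59 of all clusters in place of 90. Lgr5 passed for hPTH(1-34) against vehicle with the fixed (0.0358) and the random block (0.0395). The random block had a consensus correlation of 0.0648. For hPTH(1-34) against vehicle 0 members passed under 18 of 20 alternatives, and 1, Fzd2, with a mean log2 of at least 5 and without hPTH(1-34) array 1. The filters at a mean log2 of 3 and 5 left out members with lower means, so Fzd5 was not tested with that at 5. Against bPTH(7-34) 1 member, Fzd2, passed with the filters at 3 and 5 and with array weights, and leaving out an array gave 0 to 1. The F-test gave 1 with a mean log2 of at least 5 and 0 to 1 on leaving out an array. bPTH(7-34) against vehicle gave 0 members and 0 clusters throughout.

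Clusters called in the whole table (106, 109 and 90 for hPTH(1-34) against vehicle, against bPTH(7-34) and the F-test) were 16, 3 and 2 with all clusters, 186, 215 and 154 with the filter at a mean log2 of 3, 182, 211 and 170 with that at 5, and 166, 204 and 157 with array weights. The 6 arrays alone gave 0 and 0. Leaving out an array gave 0 to 259, 2 to 262 and 2 to 198.

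Differences near 0 turned sign in some alternatives for hPTH(1-34) against vehicle. Leaving out an array gave -0.24 to 0.022 for Wnt4, -0.13 to 0.037 for Wnt8b, -0.32 to 0.0017 for Lrp5, -0.023 to 0.04 for Sfrp2, -0.17 to 0.033 for Frzb, -0.21 to 0.36 for Sfrp4, -0.22 to 0.17 for Dkk1, -0.033 to 0.12 for Dkk3, -0.20 to 0.08 for Dkk4 and -0.057 to 0.16 for Kremen1. Quantile normalisation gave -0.00074 for Wnt5b, -0.0035 for Sfrp2 and 0.0096 for Sfrp4, and array weights 0.018 for Sfrp4 and 0.011 for Dkk1. The causes were not tested.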
